A study of Mus musculus with 8 samples.

Results

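The genes described here encode the subunits of heterotrimeric G proteins and the regulators of G protein signalling (RGS proteins). They were taken as every row of the deposited gene table whose symbol begins with Gna, Gnb, Gng or Rgs followed by the name of a family member, which gave 46 of 18306 rows. They were followed in C3H10T1/2, an established mesenchymal cell line of mouse embryo origin, in 4 vehicle libraries (numbered 1 to 4) and 4 libraries of cells given sphingosine 1-phosphate (S1P, numbered 5 to 8). All 8 cultures had been deprived of serum for 24 h and were then kept for a further 24 h in serum-free medium, with either 5 µM S1P or only its carrier, fatty acid-free albumin. By the labels the groups differ in S1P alone, and both lack serum. Nothing in the labels tells if replicates are separate cultures, and each p-value therefore reflects the spread among these libraries, which may be purely technical.

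S1P is a blood-borne lipid that acts on G protein-coupled receptors. A receptor bound by its ligand makes the Gα subunit exchange GDP for GTP, after which Gα and the Gβγ dimer act on separate effectors. Gαs raises and Gαi lowers cyclic AMP, Gαq opens the phospholipase C and calcium arm, and Gα12 and Gα13 act on the actin cytoskeleton through exchange factors of small GTPases. RGS proteins speed the hydrolysis of GTP by Gα, mainly of the Gαi/o and Gαq classes, and so shorten the signal. Several RGS transcripts are known to be induced by the signals that their products dampen, and in mesenchymal cells S1P receptors couple to Gi, Gq and G12/13 proteins.

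Of the 46 genes, 34 had enough counts to be tested. After S1P, 3 RGS genes had risen, Rgs4 (2.09-fold), Rgs20 (1.72-fold) and Rgs10 (1.70-fold), and 1 Gα gene had fallen, Gnao1 (1.68-fold lower). None of the 4 tested Gβ genes and none of the 6 tested Gγ genes passed the test (edgeR's quasi-likelihood test, Benjamini-Hochberg adjusted p under 0.05 over all 11844 genes tested). In edgeR the 4 called genes were also the only members with an unadjusted p under 0.05, beside 24.9% of all tested genes, and DESeq2 and limma-voom called these 4 and no other member. They make up 11.8% of the tested members, beside 8.5% of all tested genes called, a share close to that background. In single directions, 5.6% of all tested genes were called higher and 2.9% lower. By class, 3 of 10 tested genes named Rgs (the anchor gene Rgs9bp included) were higher, and 1 of 12 tested Gα genes was lower. Over the 34 tested members 12 log2 fold changes were above 0 and 22 below, with a median of -0.15 beside -0.04 over all tested genes. The RNA comes from whole cultures, in which fewer cells expressing a gene and less RNA per cell cannot be told apart.

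**Figure D1:**
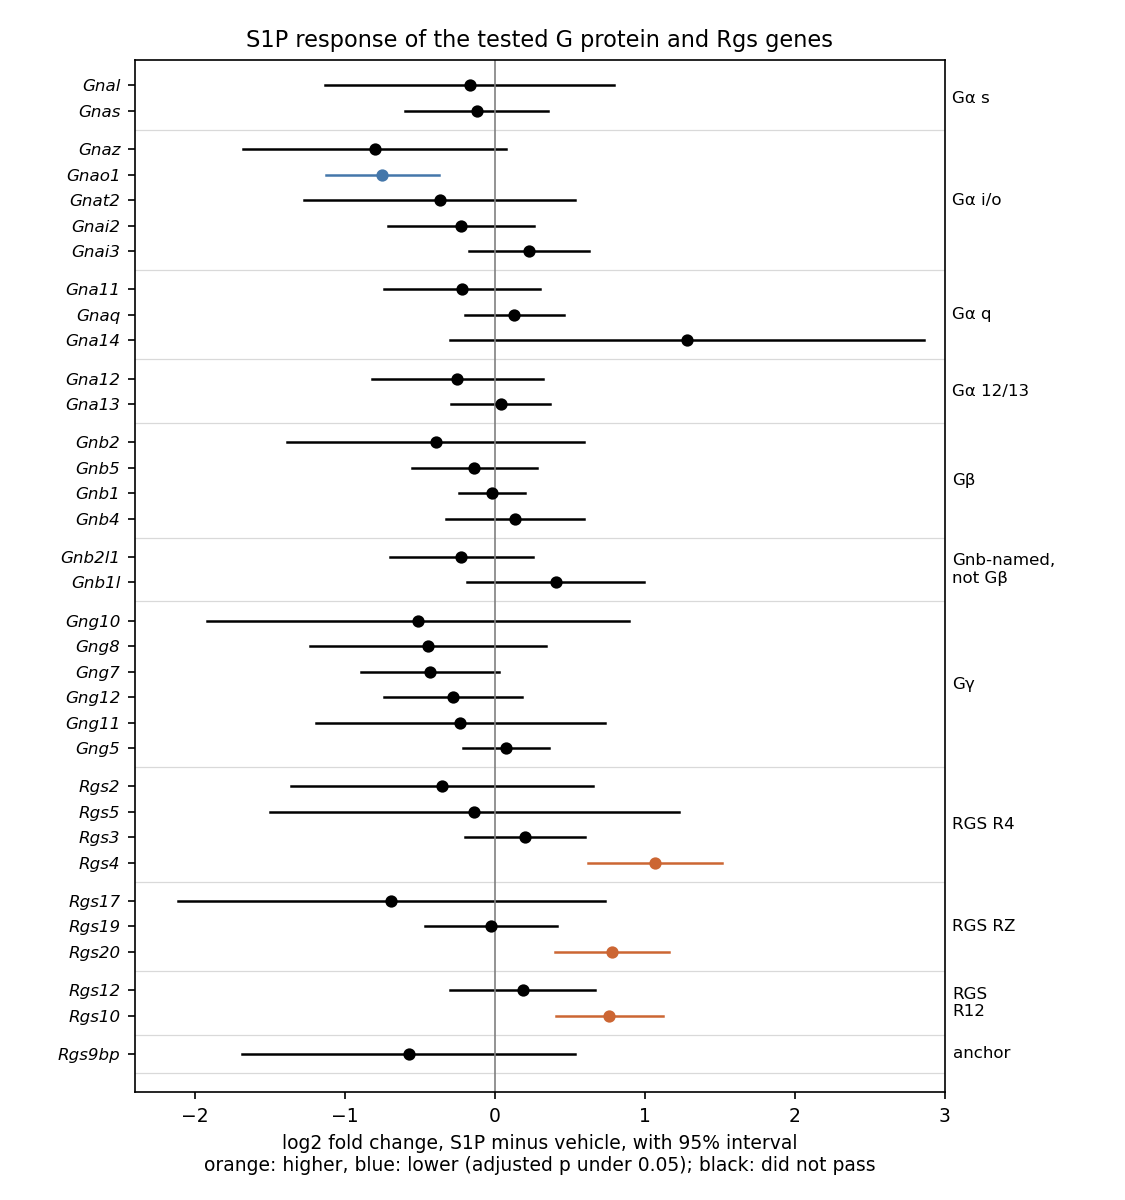
Log2 fold change (S1P minus vehicle, horizontal axis) of the 34 tested members, ordered by class, with points for the estimate and lines for its 95% interval from the edgeR fit over 4 libraries per group. Rgs4, Rgs10 and Rgs20 lie to the right of 0 and Gnao1 to the left, and the intervals of the other 30 members include 0.

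The libraries were near equal in size, from 13750303 to 13761544 counts, and the 46 genes took 0.373% to 0.504% of each. Levels are given as CPM (counts scaled to library size, with composition factors), and levels of different genes are compared only per kilobase of exon. All 9 mesenchymal markers examined were tested and none passed the threshold in edgeR (3 had an unadjusted p under 0.05, and DESeq2 called 2 lower and limma-voom 1), with a summed level of 17943 to 24799 CPM in vehicle and 14411 to 19811 CPM in S1P. Defining markers of blood, endothelium and neurons that have a row were at or near 0. The highest of the blood list, Cd68, had 40 counts in vehicle and 30 with S1P. No row under the symbols used was found for 3 of 4 neuronal, 4 of 5 epithelial and 1 of 5 blood markers. Ptprc (blood) had 0 counts in vehicle and 3 in S1P, Cd3e 0 and 1, Kdr (endothelium) 0 and 1, Cdh5 3 and 1, Pecam1 14 and 4, Syt1 (neurons) 3 and 2, and Cdh1 (epithelium) a mean of 2.00 and 1.92 CPM. Of the endothelial list only Tek was well expressed, at 36.3 to 76.6 CPM in vehicle and 17.04 to 43.9 in S1P. The pericyte and smooth muscle markers Cspg4 and Notch3 were also expressed, at means of 61.2 and 39.8 CPM in vehicle and 47.8 and 38.1 CPM with S1P, while Myh11 had 31 and 17 counts in all and Des 4 and 3. The part of Tek, Cspg4 and Notch3 in the results was not tested. Vehicle library 4 stood apart, with 2.5% of its counts from mitochondrial genes against 3.45% to 3.83% in the other 7 libraries. Results that rest on it are given with and without it.

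Rgs4, an RGS protein of the R4 subfamily that acts on Gαi/o and Gαq, had the largest change among the called members. Its level was 84.4, 63.7, 57.3 and 45.5 CPM in vehicle libraries 1 to 4 and 100.1, 137, 153 and 135 CPM in S1P libraries 5 to 8. Every S1P library lay above every vehicle library, and the closest values were those of vehicle library 1 and S1P library 5. The mean rose from 62.7 ± 16.3 to 131 ± 22.3 CPM (SD over 4 libraries each), a log2 fold change of 1.06 (SE 0.20, 95% interval 0.62 to 1.51, edgeR Benjamini-Hochberg adjusted p = 0.0121). The gene stayed past the threshold in all 17 alternative fits, with adjusted p from 3.6e-05 in DESeq2 to 0.0443 in edgeR without S1P library 6. Without vehicle library 1 its log2 fold change was 1.22 and without vehicle library 4 it was 0.94. Rgs4 lies on chromosome 1 (mm9, 171671408 to 171677973, minus strand). Its neighbour Rgs5, also of the R4 subfamily, lies at 171585432 to 171626144 on the opposite strand and had a log2 fold change of -0.14 (95% interval -1.50 to 1.22, edgeR adjusted p = 0.903).

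Rgs20, of the RZ subfamily, which acts on Gαz and other Gαi-class subunits, was at 20.9, 32.6, 23.2 and 23.0 CPM in vehicle and at 41.9, 50.9, 36.0 and 42.5 CPM with S1P. The groups did not overlap, and vehicle library 2 came closest to the S1P range. The mean went from 24.9 ± 5.25 to 42.8 ± 6.13 CPM (SD, n = 4 libraries), with a log2 fold change of 0.78 (SE 0.17, interval 0.40 to 1.16, edgeR adjusted p = 0.0221). This call is near the threshold. It was lost when vehicle library 1 (edgeR adjusted p = 0.0574), vehicle library 3 (0.0534), S1P library 6 (0.0818) or S1P library 8 (0.0667) was left out, while the log2 fold change stayed between 0.68 and 0.94. The gene spans chromosome 1 from 4899457 to 5060566 (mm9, minus strand).

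Rgs10, a small RGS protein of the R12 subfamily that acts on Gαi-class subunits, was expressed at 7.10, 6.08, 6.29 and 7.05 CPM in vehicle. With S1P it was at 10.97, 12.9, 10.5 and 10.7 CPM. The replicates of each group were close together and the groups lay well apart, at 6.63 ± 0.520 and 11.3 ± 1.09 CPM (SD, n = 4 libraries). The log2 fold change was 0.76 (SE 0.16, interval 0.41 to 1.12, edgeR adjusted p = 0.0176). Without vehicle library 2, S1P library 6 or S1P library 8 the adjusted p from edgeR was 0.0547, 0.0807 and 0.0568, with log2 fold changes from 0.69 to 0.80 over all 8 omissions. Rgs10 lies on chromosome 7 from 135516935 to 135562472 (mm9, minus strand).

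Gnao1 encodes Gαo, a pertussis toxin-sensitive Gα best known from the nervous system. It was at 85.2, 59.5, 48.8 and 66.2 CPM in vehicle and at 42.4, 39.8, 36.3 and 35.7 CPM with S1P. All S1P values were below the lowest vehicle value, and the S1P libraries were tighter than the vehicle libraries. The mean fell from 64.9 ± 15.3 to 38.5 ± 3.14 CPM (SD, n = 4 libraries), a log2 fold change of -0.75 (SE 0.17, interval -1.13 to -0.38, edgeR adjusted p = 0.0243). The adjusted p was 0.0780, 0.0793 and 0.0870 in edgeR without S1P library 6, 7 or 8. Without vehicle library 1, the highest, the log2 fold change was -0.62 and the call remained. The gene lies on chromosome 8 from 96333666 to 96493488 (mm9, plus strand), and its span overlaps that of Gm16615, which had 24 counts in all 8 libraries beside 5698 for Gnao1.

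**Figure D2:**
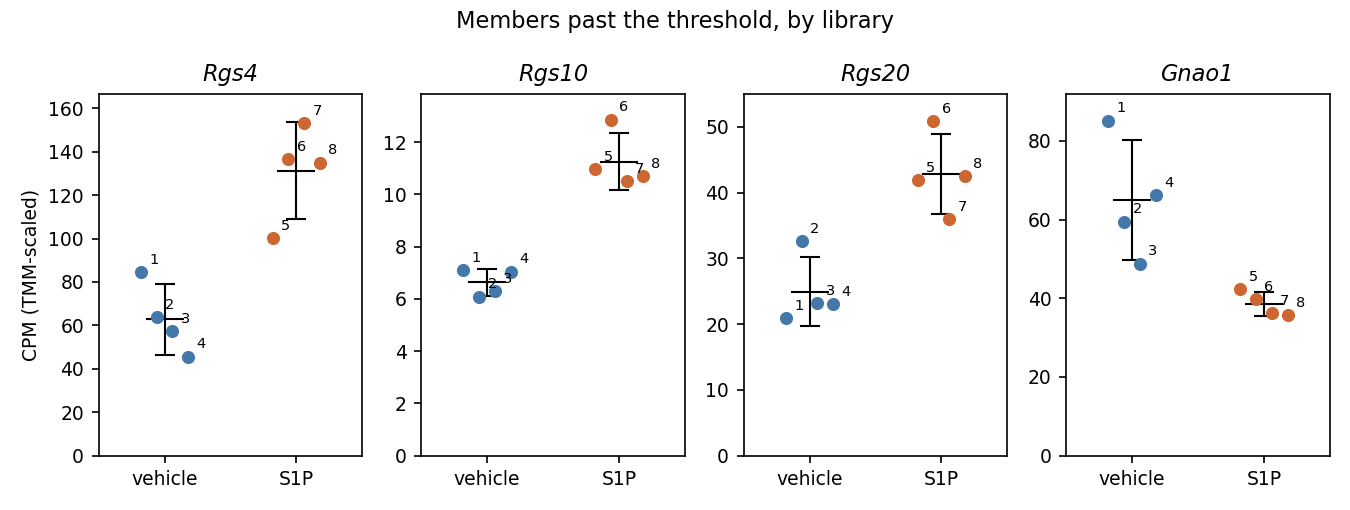
CPM (vertical axis, from 0) of Rgs4, Rgs10, Rgs20 and Gnao1 in each vehicle and S1P library, 1 point per library, with the mean and SD of 4 libraries per group. The groups do not overlap in any of the 4 panels, and Gnao1 is the panel in which S1P is lower.

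Groups that did not overlap were found for these 4 of the 34 tested members and for 6 of all 46 rows, beside 19.1% of all tested genes (11.9% with S1P higher and 7.21% with S1P lower). The other 2 were low-count rows outside the test, Rgs16 (higher) and Gng4 (lower). Rgs16, an R4 subfamily gene, had 4, 2, 0 and 1 counts in the vehicle libraries and 18, 12, 6 and 4 with S1P, so vehicle library 1 equalled S1P library 8 in counts and only scaling for composition separated them. Fitted without a filter on low counts, its log2 fold change was 2.44 (edgeR adjusted p = 0.0857). Gng4, a Gγ subunit, had 23, 16, 11 and 6 counts in vehicle and 4, 5, 3 and 2 with S1P. In the unfiltered fit its log2 fold change was -1.95 (edgeR adjusted p = 0.0524). Where leaving out a library let Gng4 pass the count filter, it did so only through its vehicle counts, so no test of it is given from those fits.

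The start regions of the called genes are shown because 3 of these genes rose and 1 fell together with treatment. A window from 250 bases before to 50 bases after a RefSeq transcript start (GRCm38.p6) was found for 34 of the 46 genes, and for 3 of the 4 called ones. Both strands were searched for the TATA box TATAAA, the CCAAT box, the AP-1 motif TGANTCA, the cyclic AMP response element TGACGTCA, the TEAD motif GGAATG and the serum response factor motif (CArG box), inside which TATAAA can lie. Capitals mark the matches, found in Rgs4 only.
Rgs4 (chr1:169747593-169747892, minus strand): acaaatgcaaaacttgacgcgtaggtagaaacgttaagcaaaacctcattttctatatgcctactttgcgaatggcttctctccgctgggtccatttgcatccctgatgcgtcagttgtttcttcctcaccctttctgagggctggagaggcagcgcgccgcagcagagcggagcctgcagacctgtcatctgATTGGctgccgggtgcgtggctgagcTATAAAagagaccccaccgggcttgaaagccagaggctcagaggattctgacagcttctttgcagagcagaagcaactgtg
Rgs10 (chr7:128418123-128418422, minus strand): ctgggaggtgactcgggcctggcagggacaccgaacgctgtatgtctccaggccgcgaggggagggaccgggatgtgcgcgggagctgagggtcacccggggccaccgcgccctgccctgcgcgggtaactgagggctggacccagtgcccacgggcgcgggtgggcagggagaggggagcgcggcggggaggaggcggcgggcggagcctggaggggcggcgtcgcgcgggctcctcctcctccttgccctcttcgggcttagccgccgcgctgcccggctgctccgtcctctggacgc
Gnao1 (chr8:93810588-93810887, plus strand): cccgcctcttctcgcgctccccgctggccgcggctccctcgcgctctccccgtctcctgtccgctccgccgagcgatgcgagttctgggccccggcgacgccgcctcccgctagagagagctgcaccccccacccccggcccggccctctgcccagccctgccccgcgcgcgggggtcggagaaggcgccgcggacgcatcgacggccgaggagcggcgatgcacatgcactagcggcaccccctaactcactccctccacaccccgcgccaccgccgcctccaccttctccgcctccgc
The Rgs4 window held TATAAA at bases -31 to -26 from the start and CCAAT on the opposite strand, read as ATTGG, at -57 to -53. TATAAA was held by 13.6% of all 32851 windows and the CCAAT box by 37.4%. The AP-1 motif was held by 7.81%, the cyclic AMP response element by 1.79%, the TEAD motif by 14.7% and the CArG box by 1.63%. The windows also differed in base composition. Rgs4 had 53% G and C and 13 CpG sites, Rgs10 76% and 34 sites, and Gnao1 76.3% and 42 sites, against medians of 52.7% and 7 sites over all windows. The 46 windows found for the 34 members had a median of 21.5 sites. These are matches of letters, and no binding was measured.

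Among the other R4 genes, Rgs3, which acts on Gαi and Gαq and also binds Gβγ, was at 37.9, 53.3, 53.9 and 67.3 CPM in vehicle and 57.5, 61.9, 72.4 and 52.0 CPM with S1P. These values overlapped (log2 fold change 0.20, interval -0.20 to 0.60, edgeR adjusted p = 0.511). Rgs2, which prefers Gαq, was at 22.2, 7.49, 16.5 and 5.09 CPM and at 14.9, 7.49, 10.5 and 7.26 CPM. Its replicates differed more than the groups, and the interval of its log2 fold change ran from -1.36 to 0.65. Rgs5, known from pericytes, ranged from 0.994 to 5.62 CPM in vehicle and from 0.866 to 5.29 CPM with S1P. Rgs8 had 2 counts in vehicle and 3 with S1P and was not tested.

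Rgs19, an RZ protein first known as a Gαi-binding protein, was at 22.4, 29.2, 26.0 and 39.7 CPM in vehicle and at 22.1, 33.0, 29.2 and 30.8 CPM with S1P. The groups overlapped, with vehicle library 4 above every S1P library (log2 fold change -0.03, interval -0.47 to 0.41, edgeR adjusted p = 0.943). Rgs17 had at most 3.27 CPM in any library and an interval from -2.12 to 0.73. Rgs12, a large R12 protein with several further domains, was at 15.5 to 32.2 CPM in vehicle and 24.3 to 30.8 CPM with S1P (log2 fold change 0.19, interval -0.30 to 0.67). All 4 R7 genes, Rgs6, Rgs7, Rgs9 and Rgs11, which act with Gβ5 mainly in neurons and retina, were too low to test. They had 0, 29, 14 and 37 counts over the vehicle libraries and 1, 24, 9 and 27 over the S1P libraries, and the span of Rgs11 overlaps Arhgdig, so that its counts are uncertain. Rgs22, which belongs to no subfamily named here, had 1 count in vehicle and 0 with S1P. The R7 anchor gene Rgs9bp was at 1.04 to 4.05 CPM in vehicle and 0.800 to 2.67 CPM with S1P, and its interval ran from -1.69 to 0.54.

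Summed over the RGS rows other than the anchor gene Rgs9bp, the level was 207 to 229 CPM in vehicle and 284 to 343 CPM with S1P, so the sums did not overlap. Rgs4 took 20.3% to 36.9% of the RGS counts in vehicle and 35.3% to 44.6% with S1P. Within the R4 rows alone the sum was 120 to 146 CPM in vehicle and 175 to 242 CPM with S1P. In the RZ rows Rgs20 took 36.4% to 51.8% of counts in vehicle and 54.6% to 63.9% with S1P, and Rgs19 the larger part of the remainder. These sums are a description, with no test. They include the called genes Rgs4, Rgs20 and Rgs10, and no other tested RGS gene passed. No rise of the family beyond the called genes is read from them.

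**Figure D3:**
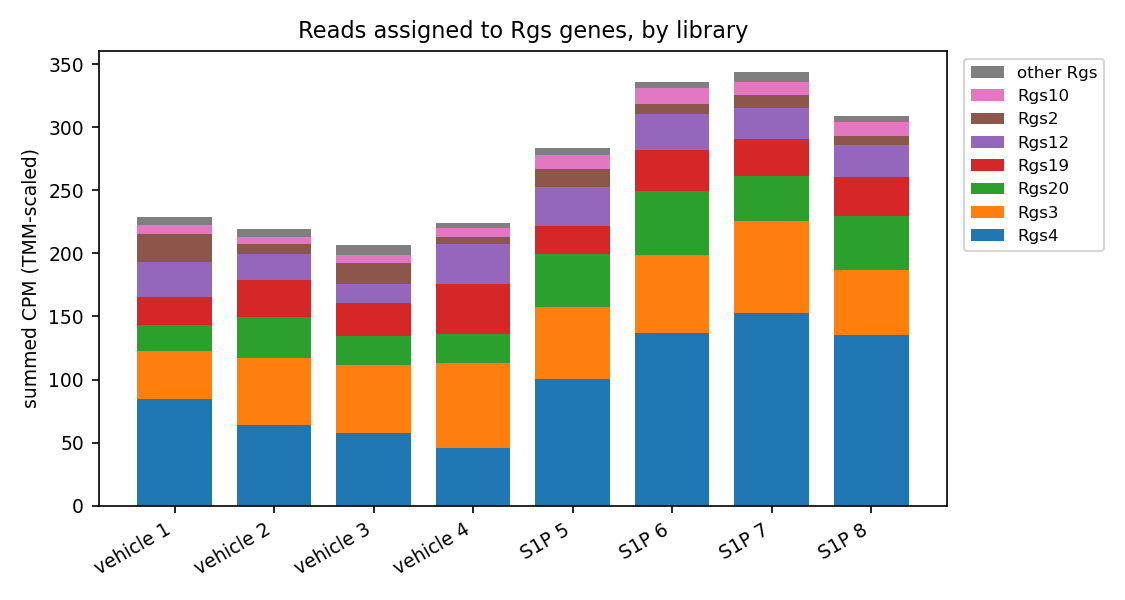
Summed CPM of the RGS rows in each of the 8 libraries (vertical axis, stacked bars from 0), divided into Rgs4, Rgs3, Rgs20, Rgs19, Rgs12, Rgs2, Rgs10 and the remaining RGS genes. The sums are 207 to 229 CPM in the vehicle bars and 284 to 343 CPM in the S1P bars.

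Per kilobase of exon the order of the RGS genes in vehicle was Rgs4 (21.3 ± 5.53 CPM per kb), Rgs19 (13.7 ± 3.48), Rgs20 (9.92 ± 2.09), Rgs3 (6.78 ± 1.53) and Rgs10 (5.82 ± 0.456), all SD over 4 libraries. Each neighbouring pair in that order overlapped between the vehicle libraries, so the order is not fixed beyond their spread. With S1P, Rgs4 stood at 44.6 ± 7.58 CPM per kb, Rgs20 at 17.02 ± 2.44, Rgs19 at 13.5 ± 2.21, Rgs10 at 9.88 ± 0.953 and Rgs3 at 7.78 ± 1.10.

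Of the 5 tested Gαi/o genes only Gnao1 changed. Gnai2, a broadly expressed Gαi, was at 383, 364, 309 and 624 CPM in vehicle and 418, 385, 308 and 323 CPM with S1P. Vehicle library 4 was the high value, and the other libraries of both groups lay together (log2 fold change -0.23, interval -0.72 to 0.26, edgeR adjusted p = 0.535). Gnai3, the other broadly expressed Gαi, was at 279, 315, 282 and 167 CPM and at 295, 305, 318 and 302 CPM, and here vehicle library 4 was the low value (log2 fold change 0.23, interval -0.17 to 0.63, edgeR adjusted p = 0.449). Gnaz and Gnat2, for Gαz and the cone transducin, were at 0.509 to 2.11 CPM in vehicle and 0.505 to 1.03 CPM with S1P, with intervals from -1.68 to 0.08 and from -1.27 to 0.53. Gnai1 had 1, 0, 0 and 0 counts in vehicle and 0, 1, 3 and 7 with S1P, and Gnat1, the rod transducin, had 0 and 5 counts in all, both under the count filter. As a share of Gαi/o counts, Gnao1 was 7.61% to 11.4% in vehicle and 5.38% to 5.60% with S1P. Per length it stood well under its relatives in vehicle, at 7.48 ± 1.76 CPM per kb beside 183 ± 60.7 for Gnai2 and 79.9 ± 19.7 for Gnai3.

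The Gαq class did not pass the test in any of its 3 genes. Gnaq was at 185, 234, 241 and 195 CPM in vehicle and 181, 245, 243 and 266 CPM with S1P, with vehicle library 1 and S1P library 5 the lowest of their groups (log2 fold change 0.13, interval -0.20 to 0.46, edgeR adjusted p = 0.612). Gna11, its close relative, was at 102, 97.6, 90.6 and 192 CPM and at 114, 107, 93.6 and 99.5 CPM, level across both groups but for vehicle library 4 (interval -0.74 to 0.30, edgeR adjusted p = 0.578). Gna14, a Gαq-class gene of narrower expression, was at 0.0710, 0.742, 0.740 and 0.944 CPM in vehicle and 0.217, 1.96, 1.69 and 2.23 CPM with S1P. The lowest library of each group, vehicle 1 and S1P 5, lay apart from the other 3. The log2 fold change of Gna14 was 1.28 (SE 0.70, interval -0.30 to 2.86, edgeR adjusted p = 0.289), and without vehicle library 1 and S1P library 5 together it was also 1.28 with an adjusted p of 0.0491, an omission chosen after seeing the data. Without vehicle library 4 and S1P library 5 it was 1.91 (edgeR adjusted p = 0.0472). No omission of 1 library gave a call.

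Gna13 and Gna12, the subunits that act on the cytoskeleton, did not pass the test. Gna13 was at 140, 151, 161 and 99.3 CPM in vehicle and 138, 143, 149 and 136 CPM with S1P (log2 fold change 0.04, interval -0.29 to 0.37, edgeR adjusted p = 0.889). Gna12 was at 38.4, 38.3, 32.1 and 73.4 CPM and at 44.8, 41.1, 31.8 and 35.4 CPM (interval -0.82 to 0.32, edgeR adjusted p = 0.562). Vehicle library 4 was the lowest vehicle library for Gna13 and the highest for Gna12. Gnas, for Gαs, was at 120, 115, 99.5 and 198 CPM in vehicle and 132, 135, 98.1 and 124 CPM with S1P (interval -0.60 to 0.36, edgeR adjusted p = 0.743). The Gnas span overlaps the antisense gene Nespas over 11517 bases, with 30 counts there in all. Gnal, the Gαs-class subunit of olfactory neurons, was at most 1.28 CPM, and its span holds Chmp1b, a gene with 7041 counts against 87 for Gnal, so its value is uncertain.

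Gnb1, the most abundant Gβ per length, varied least of the tested members between vehicle libraries (coefficient of variation 5.29%). It was at 473, 509, 454 and 458 CPM in vehicle and 470, 488, 438 and 473 CPM with S1P, a log2 fold change of -0.02 with an interval from -0.24 to 0.20 (edgeR adjusted p = 0.919). Of the tested Gβ genes Gnb2 differed most between vehicle libraries, with 94.4, 85.6, 73.0 and 314 CPM in vehicle and 130, 114, 80.7 and 106 CPM with S1P. Its log2 fold change was -0.40 with all libraries (interval -1.38 to 0.59, edgeR adjusted p = 0.601) and 0.35 without vehicle library 4, so neither direction can be given. Gnb4 and Gnb5, the latter the partner of the R7 proteins, were at 7.85 to 16.8 CPM in vehicle and 9.70 to 15.4 CPM with S1P, with intervals from -0.33 to 0.59 and from -0.56 to 0.28. Gnb3 had 7 counts in vehicle and 3 with S1P. The rule also takes Gnb2l1 and Gnb1l, WD-repeat proteins named after Gβ that are not part of G protein heterotrimers. Gnb2l1 (now Rack1), a ribosome-bound scaffold, was at 1001, 1393, 1121 and 1996 CPM in vehicle and 1061, 1372, 1101 and 1186 CPM with S1P (interval -0.70 to 0.25, edgeR adjusted p = 0.538), and Gnb1l had an interval from -0.19 to 1.00. The spans of Gnb2 and Gnb2l1 overlap Gigyf1 and Trim41 by 208 and 431 bases on the other strand.

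Among the Gγ genes Gng12 was by far the most abundant and took 85.4% to 93.3% of Gγ counts over the vehicle libraries and 88.8% to 91.6% over the S1P libraries. It was at 486, 573, 655 and 335 CPM in vehicle and 504, 369, 446 and 367 CPM with S1P. The groups overlapped, with vehicle library 4 below all S1P libraries (log2 fold change -0.28, interval -0.74 to 0.18, edgeR adjusted p = 0.424). Without vehicle library 4 and S1P library 5 together Gng12 was called lower (log2 fold change -0.53, edgeR adjusted p = 0.0326), and without vehicle library 4 alone it was not (adjusted p = 0.0781). Gng5, small and broadly expressed, was at 21.7 to 29.0 CPM in vehicle and 23.6 to 26.9 CPM with S1P (interval -0.21 to 0.36). Gng7 was at 12.8, 12.02, 12.7 and 19.0 CPM and at 10.9, 9.16, 8.81 and 12.9 CPM, with overlapping groups (log2 fold change -0.43, interval -0.89 to 0.03, edgeR adjusted p = 0.225). Gng11 ranged from 2.40 to 11.0 CPM in vehicle and from 3.88 to 7.22 CPM with S1P, and Gng8 and Gng10 were at 0.223 to 3.705 CPM. Their intervals all included 0, from -1.20 to 0.73 for Gng11, from -1.23 to 0.34 for Gng8 and from -1.92 to 0.90 for Gng10. Gng2 had 28 and 12 counts in all and was not tested.

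**Figure D4:**
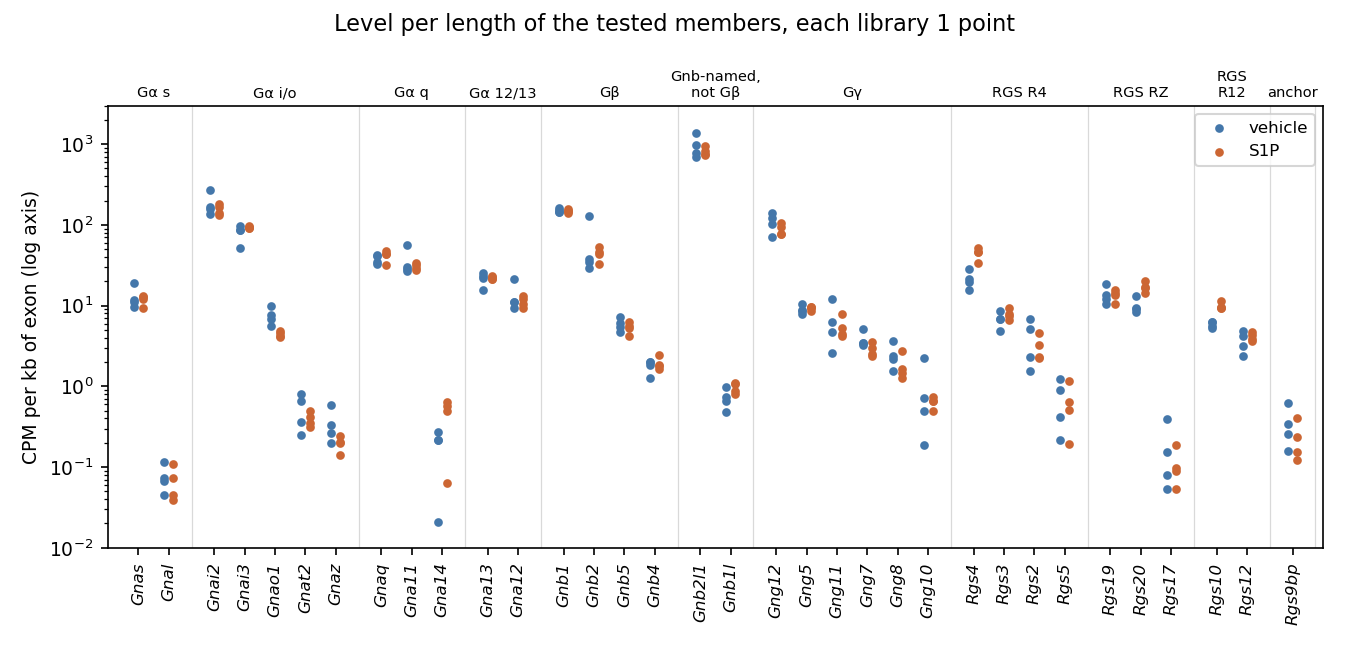
CPM per kilobase of exon (vertical log axis) of the 34 tested members in each library, 4 vehicle and 4 S1P points per gene, grouped by class. Gnai2, Gnb1 and Gng12 lie highest within the subunit classes and Rgs4 highest among the RGS genes. Gnb2l1, which is named after Gβ but is not a G protein subunit, lies above all of them.

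Compared per length in vehicle, the most abundant subunits were Gnai2 (183 ± 60.7 CPM per kb), Gnb1 (151 ± 7.97) and Gng12 (108 ± 29.0), followed by Gnai3 (79.9 ± 19.7), Gnb2 (57.4 ± 46.7), Gnaq (37.8 ± 4.93), Gna11 (35.3 ± 14) and Gna13 (21.5 ± 4.23). Gnai2 and Gnb1 did not differ beyond their spread, nor did Gnaq and Gna11. Of the 30 tested members that did not pass the test, 18 had an interval within 1 log2 unit on either side of 0. For the other 12 a change of 2-fold in at least 1 direction lies inside the interval.

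The spread of the members was larger in vehicle than in S1P. The coefficient of variation was larger in vehicle for 30 of the 34 tested members, with medians of 31.4% and 15.9%. Without vehicle library 4 it was larger for 20 of 34, with a vehicle median of 19.7%. No such count over all tested genes is given, so the larger spread cannot be called particular to these genes. The deviation of vehicle library 4 from the mean of the other 3 vehicle libraries rose with the GC content of the transcripts, with a Pearson correlation of 0.56 across the 34 members and 0.74 across the 11634 tested genes that have a GC value. These points share 1 library and are no replicates. Gnb2, with 59.9% GC, deviated by 1.90 log2 units, and Gnai3, with 41.7% GC, by -0.80. Not every member followed the trend. Gng10, with 43.6% GC, deviated most upward, by 2.09, on low counts (12, 3, 8 and 37 in vehicle libraries 1 to 4). Rgs4 (44.9% GC) deviated by -0.59, Rgs10 by 0.12, Rgs20 by -0.15 and Gnao1 by 0.04. Without vehicle library 4 all 4 were still called.

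**Figure D5:**
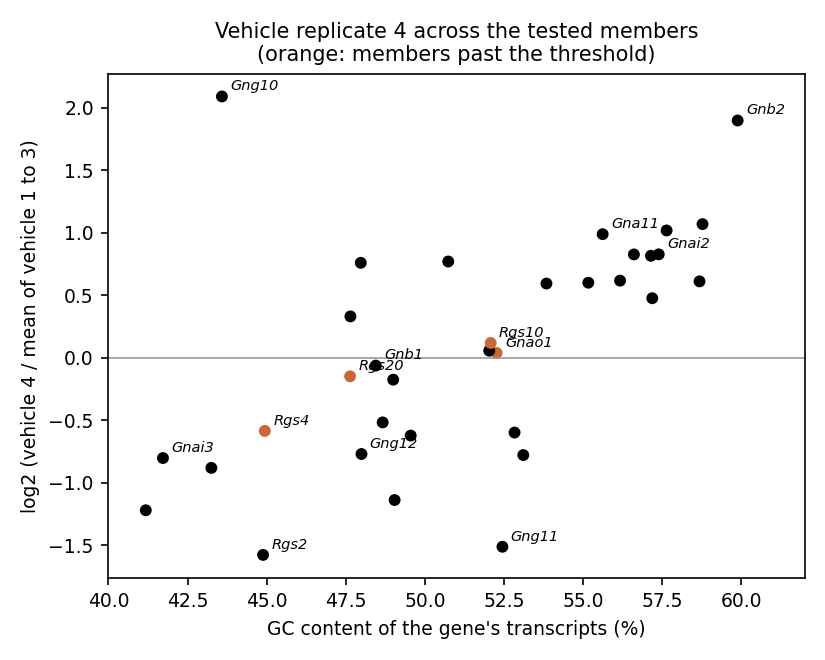
Deviation of vehicle library 4 from the mean of the other 3 vehicle libraries (log2, vertical axis) against the mean GC content of each gene's transcripts (percent, horizontal axis) for the 34 tested members. Gnb2 (59.9% GC) and Gng10 (43.6% GC) lie highest, at 1.90 and 2.09, and Rgs2 lowest, at -1.58.

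Around the G proteins, 91 rows for 98 listed receptors, effectors and other regulators were examined, and 5 of the 70 that could be tested passed, 3 higher and 2 lower, a share close to the 8.5% of all tested genes called. Of the S1P receptors, 3 of 5 have a row under the symbols used and none passed the test, though all 3 had an unadjusted p under 0.05 in edgeR. DESeq2 called 1 of them lower, whereas limma-voom had 1 under an unadjusted p of 0.05 and called 0. S1pr1, which couples to Gi, averaged 61.2 ± 15.4 CPM in vehicle and 43.6 ± 8.16 CPM with S1P (edgeR adjusted p = 0.188). S1pr2, which couples to G12/13 above all, averaged 108 ± 15.6 and 84.4 ± 15.4 CPM (edgeR adjusted p = 0.195). S1pr3, which couples to Gi, Gq and G12/13, was at 1.99, 10.6, 14.7 and 7.63 CPM in vehicle and 1.52, 2.62, 4.26 and 2.66 CPM with S1P. Only vehicle library 1 lay within the S1P range (log2 fold change -1.66, edgeR adjusted p = 0.0950).

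In the Gq arm 13 genes were tested, of which 1 was higher and 2 lower. Of these 13, 6 had an unadjusted p under 0.05 in edgeR, beside 24.9% of all tested genes. DESeq2 had 10 under that p and called 1 higher and 3 lower, and limma-voom had 6 and called 1 higher and 2 lower. Plcb4, a phospholipase C driven by Gαq, was at 59.4, 54.5, 68.8 and 52.4 CPM in vehicle and 86.8, 91.2, 94.6 and 103 CPM with S1P, a rise of 1.60-fold (SE 0.12 on the log2 scale, edgeR adjusted p = 0.00845). Itpr2, a calcium channel opened by IP3, fell 1.72-fold from 107, 87.0, 74.8 and 75.2 CPM to 54.3, 47.5, 51.3 and 47.0 CPM (SE 0.13, edgeR adjusted p = 0.00856). Arhgef25, a guanine nucleotide exchange factor that binds Gαq, went from 172, 164, 160 and 219 CPM to 109, 132, 119 and 123 CPM, 1.48-fold lower (SE 0.13, edgeR adjusted p = 0.0253). None of these groups overlapped. The Arhgef25 call was lost without S1P library 5, 6, 7 or 8, with adjusted p of 0.0625, 0.0622, 0.0805 and 0.0817 in edgeR, whereas Plcb4 and Itpr2 kept theirs in all alternative fits.

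Among Gβγ effectors 3 could be tested and Pik3cb, a PI3-kinase catalytic subunit that Gβγ can activate, was higher. It rose from 10.4, 14.99, 15.2 and 13.1 CPM to 24.7, 27.7, 23.9 and 24.9 CPM, 1.88-fold (SE 0.15, edgeR adjusted p = 0.00739). Prex2, a Rac exchange factor of the same list, was at 12.6, 3.41, 4.51 and 3.20 CPM in vehicle and 27.9, 13.5, 14.7 and 13 CPM with S1P. Its groups did not overlap but it missed the threshold in edgeR (adjusted p = 0.0759). Vehicle library 1 and S1P library 5 were the highest of their groups. DESeq2 and limma-voom each called 2 genes of this list. The low-count rows Pik3r6 (30 counts in vehicle and 2 with S1P) and Prex1 (30 and 10) were not tested. Both were lower with S1P, without overlap of the groups. Among 12 tested regulators of Gα outside the RGS family, Gpsm2, which holds Gαi in its GDP form through GoLoco motifs, rose 1.59-fold. It was at 38.4, 36.9, 35.7 and 33.2 CPM in vehicle and 49.2, 60.2, 58.9 and 60.7 CPM with S1P (SE 0.11, edgeR adjusted p = 0.00715). DESeq2 called 2 of this list higher and 1 lower, and limma-voom 1 higher. Nucb1, the highest in mean CPM, was at 148, 156, 149 and 342 CPM in vehicle and 110 to 121 CPM with S1P. Its groups did not overlap (log2 fold change -0.78, edgeR adjusted p = 0.109), nor did those of Snx25, higher with S1P (0.38, edgeR adjusted p = 0.0757). Both missed the edgeR threshold.

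In the other lists described here no gene passed. The cyclic AMP arm had 22 tested rows, with Pde4d holding more than a single row. Of these rows 5 had an unadjusted p under 0.05 in edgeR, a share near the 24.9% of all tested genes. In this arm limma-voom called 0 and DESeq2 called 2 higher and 1 lower. Its members with the highest mean CPM over the 8 libraries, with no account of length, were Prkar1a, a regulatory subunit of protein kinase A (505 ± 33.6 CPM in vehicle, 528 ± 35.3 with S1P, edgeR adjusted p = 0.719), and Pde7a, a cyclic AMP phosphodiesterase (99.5 ± 26.6 and 153 ± 47.5 CPM, edgeR adjusted p = 0.195). Of 6 tested receptor kinases and arrestins 0 had an unadjusted p under 0.05, and no other tool called one. Adrbk1, the G protein-coupled receptor kinase that Gβγ recruits, was at 64.2, 71.2, 72.7 and 134 CPM in vehicle and 64.9 to 67.4 CPM with S1P, again with vehicle library 4 apart, and Grk5 averaged 44.4 ± 5.34 and 40.6 ± 2.00 CPM.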

How the data were processed

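RNA sequencing libraries of C3H10T1/2 cells were analysed, 4 with vehicle and 4 with S1P. The authors deposited unscaled counts of reads for each Ensembl gene, as whole numbers with mm9 coordinates per the file header, and the header names no normalisation. STAR 2.5.3a and mm9 were used, per the submitters' processing notes. No source used here names the counting tool, its annotation or the use of strand, so reads shared by overlapping genes or similar copies are uncertain. The near-equal totals resemble libraries reduced to a common size, and the depth before that is unknown. In CPM scaled by library total alone, 3 counts are 0.218, the limit that a count of 0 allows (counting error only).

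Genes were filtered with filterByExpr (minimum count 10), scaled by TMM and tested with the robust quasi-likelihood test of edgeR 4.0.16 (R 4.3.3), with treatment as the only term and Benjamini-Hochberg adjustment over 11844 genes at 0.05. CPM values use the TMM factors, and log2 fold changes are S1P minus vehicle. SEs come from the quasi-likelihood F statistic. Exon lengths and GC content are from GENCODE vM21 (GRCm38), matched by Ensembl ID for all 46 genes, and all 46 IDs were found in a current name table, 1 under another symbol. Of 56 family genes listed, 10 have no row under the symbols used (Gna15, Gnat3, Gng3, Gng13, Rgs1, Rgs7bp, Rgs13, Rgs14, Rgs18 and Rgs21). The fit was tested on simulated counts drawn independently for each library. They lacked the library deviations described in this report, so that test does not cover them. Named were all called members, the member of each class with the highest mean CPM and, where none was called, the most changed, all S1P receptors, and up to 4 called or the 2 genes of highest mean CPM of each pathway list. Other names were chosen after their values were seen. The members and lists were chosen with earlier results of these data known. Alternatives were other scaling and filters, DESeq2 1.42.0, limma-voom (limma 3.58.1), 1 surrogate variable (sva 3.50.0) and omission of libraries. The results of 1 pathway list are not reported here.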

Additional observations from a re-analysis of the deposited data

Results flagged for a closer look

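In 4 of the 68 groups of 4 libraries examined (34 members, both groups), 1 library lay far from the other 3 by Dixon's criterion, and chance gives about 1 such group in 20. All 4 were vehicle library 4 at the high end. It had 73.4 CPM of Gna12 against 32.1 to 38.4 in the other vehicle libraries and 192 CPM of Gna11 against 90.6 to 102. It had 314 CPM of Gnb2 against 73.0 to 94.4 and 19.0 CPM of Gng7 against 12.02 to 12.8. None of these 4 genes was called with or without that library, and no S1P library stood apart in this way.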

How the results depend on the processing

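Rgs4, Rgs10, Rgs20 and Gnao1 kept their direction in all 17 alternative fits and their calls under other scaling, filters, DESeq2, limma-voom and 1 surrogate variable. With 1 library left out, 1 to 3 members were higher and 0 to 2 lower. Without vehicle 4 and S1P 5 together, 3 were lower. Where vehicle 4 was left out these counts include Gng4, which passed the filter only through its vehicle counts. Without vehicle 1 and S1P 5, an omission added after seeing the data, 0 were lower (Gnao1 adjusted p = 0.0615), and Rgs10 (0.0565) and Rgs20 (0.0894) also missed the edgeR threshold.

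Over all genes, 663 were higher and 344 lower. DESeq2 gave 967 and 804, 1 surrogate variable 1471 and 1015, and omission of both vehicle 4 and S1P 5 gave 1178 and 934. Omitting 1 library gave 333 to 1133 higher (fewest without S1P 6, most without vehicle 4) and 101 to 723 lower. Pathway genes were 3 higher and 2 lower, but 7 and 6 in DESeq2 and 6 and 5 with 1 surrogate variable. Without vehicle 4 and S1P 5, 7 were lower, and without vehicle 1 and S1P 5, 7 were higher. Omitting 1 library gave 3 to 6 higher and 1 to 4 lower. The cause was not tested.

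Directions turned only in members that were not called. Gna13 went to a log2 fold change of -0.014 with upper quartile factors. With 1 surrogate variable Gna13 was -0.028, Gnas 0.050, Gnb2 0.15, Gng10 0.20 and Rgs19 0.086. Over the 8 omissions of 1 library and both omissions of a library from each group, values ran from -0.41 to 0.079 for Gna12, -0.089 to 0.12 for Gna13, -0.35 to 0.026 for Gnai2, -0.34 to 0.098 for Gna11, -0.69 to 0.088 for Gnal and -0.24 to 0.13 for Gnas. They ran from -0.042 to 0.018 for Gnb1, -0.65 to 0.35 for Gnb2, -0.0040 to 0.27 for Gnb4, -0.38 to 0.059 for Gnb2l1, -0.85 to 0.44 for Gng10 and -0.72 to 0.24 for Gng11. For Rgs2 they ran from -0.87 to 0.026, for Rgs5 from -0.62 to 0.30, for Rgs17 from -1.34 to 0.12 and for Rgs19 from -0.16 to 0.26.

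No paired analysis was possible because the replicate numbers in the labels are not shared between the groups. Depth limits Rgs16, Gng4, Gnai1 and the R7 genes, whose counts are under the filter used for the test.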

Other observations

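Libraries of the 2 groups deviated together in ways the labels do not name. The deviations of vehicle library 1 and S1P library 5 from their group means correlated with r = 0.74 across the 34 tested members and 0.53 across all 11844 tested genes. For vehicle library 3 and S1P library 7 the values were 0.64 and 0.58, and for vehicle library 4 and S1P library 6 they were 0.50 and 0.30. Vehicle library 2 correlated most with S1P library 7, at 0.39 and 0.29. Vehicle library 1 against S1P library 6 gave -0.65 over the members. Genes are not replicates, and these values are a description. Rgs2 shows the pattern: it was highest in vehicle library 1 (22.2 CPM) and S1P library 5 (14.9), next in vehicle library 3 (16.5) and S1P library 7 (10.5). Gng11 had the same order, with 11.0 and 7.22 CPM in libraries 1 and 5 and 5.77 and 4.85 CPM in libraries 3 and 7. Rgs5 was highest in vehicle library 3 (5.62 CPM) and S1P library 7 (5.29), and lowest in vehicle library 1 (0.994) and S1P library 5 (0.866). No test given here takes this structure into account. Whether these libraries share a culture or a day was not tested.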
